A study of Drosophila melanogaster with 48 samples.

Results

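The genes knot (kn), blistered (bs), net and plexus (px), which control where the wing of Drosophila melanogaster forms veins and where it forms the flat intervein tissue between them, were followed through a study that expressed the Hox protein Ultrabithorax (Ubx) in the developing wing. Every probe set of the Affymetrix Drosophila Genome 2.0 array annotated with 1 of these 4 symbols was taken and read apart. This gave 5 of 18769 probe sets tested and 4 of 11982 named genes. The gene kn has the probe sets 1639479_a_at and 1638559_at, bs has 1630990_at, net has 1627446_at and px has 1638412_at.

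The study hybridised 48 arrays, 4 biological replicates in each of 12 groups. Animals of the Ubx line carried UAS-UbxIa and those of the control line carried UAS-eGFP, which encodes a fluorescent protein. Both lines were heterozygous for their transgene in a w background and also carried the Gal4 driver nabGal4NP3537 over Tub-Gal80ts. Gal80ts is a heat-sensitive repressor of Gal4, so both transgenes were on after a shift to 29 °C for 16 h and off in animals kept at 19 °C throughout. Larvae were wandering and in the third instar, at 29 °C about 4 h before puparium formation, and were staged by gut colour. At 29 °C the prepupae were 6 h and the pupae 16 h past puparium formation. At 19 °C they were 12.5 h and 33.5 h past it. Each sample pooled whole wings or wing discs of about 15 to 20 animals, and the driver acts only in cells in which the nab insertion is active. A lower value can therefore mean fewer cells of a type or less RNA per cell, which these bulk samples cannot tell apart.

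In the developing wing, Egfr and Dpp signalling promote vein fate in narrow stripes, while a set of nuclear proteins keeps the cells between the stripes from becoming vein. The product of kn (also called Collier) is a transcription factor of the COE family that responds to Hedgehog signalling and is needed for the central intervein region. The product of bs is the serum response factor of the fly, a MADS-box protein required for intervein fate and also known for its role in terminal tracheal cells. The basic helix-loop-helix protein Net and the nuclear matrix-associated protein Plexus both restrict vein formation, and wings that lack either develop extra vein tissue. Ubx is the selector of the haltere, the balancing organ that takes the place of the hindwing and has no veins.

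Values are log2 RMA summaries as the authors deposited them, and differences are Ubx minus eGFP with the standard error (SE) of a limma model over all 48 arrays, 4 arrays per group. A call required a Benjamini-Hochberg adjusted p under 0.05 over all 18769 probe sets. Array medians ran between 4.19 and 4.78, and replicate arrays of a group correlated at 0.995 or above across probe sets. The values lay on a common scale within each set of 8 arrays that share a stage and temperature but not between the 6 sets, so levels set across stages or temperatures are described with no test. The gene nab, in which the driver sits, was higher at 29 °C in the Ubx line by 0.71, 1.72 and 0.93 in larvae, prepupae and pupae (probe set 1637139_at, adjusted p = 3.01e-09, 8.5e-22 and 4.71e-13). At 19 °C it differed by at most 0.08. Its dimmer probe set 1633006_at was called at 29 °C in larvae (0.56) and pupae (0.72) but not in prepupae (0.34, adjusted p = 0.144). Ubx itself is not analysed here. The larval eGFP array 3 at 29 °C stood apart in fat body genes, with a mean log2 level of 10.72 over 3 genes against 5.16 to 6.00 on the other eGFP arrays of that group and 4.89 to 6.03 on the Ubx arrays.

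In larvae at 29 °C, 3 of the 5 probe sets were called lower in the Ubx line (kn 1639479_a_at, net and px) and none higher, where 2.77% of all probe sets were called in either direction. In prepupae, 1 was called lower (kn) against 14.2% of all probe sets. In pupae, 2 were called lower (kn and bs) against 8.89%. At 19 °C, limma called none of the 5 in larvae, prepupae or pupae, where 1.41%, 3.67% and 1.99% of all probe sets were called. At an unadjusted p under 0.05, 1 of the 5 passed at 19 °C in larvae, none in prepupae and none in pupae. The larval one was kn 1639479_a_at, at rank 361 by p among the probe sets tested. The share of all probe sets under that unadjusted threshold is not given here. The test of whether the line difference changed with temperature (the interaction of line with temperature) called 1 of the 5 in larvae, 1 in prepupae and 2 in pupae, against 0.442%, 7.69% and 3.36% of all probe sets. The term Ubx-dependent is used below for a gene that passed both at 29 °C and in this interaction, with one sign. By that measure net was Ubx-dependent in larvae, kn in prepupae and pupae, and bs in pupae.

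**Figure D1:**
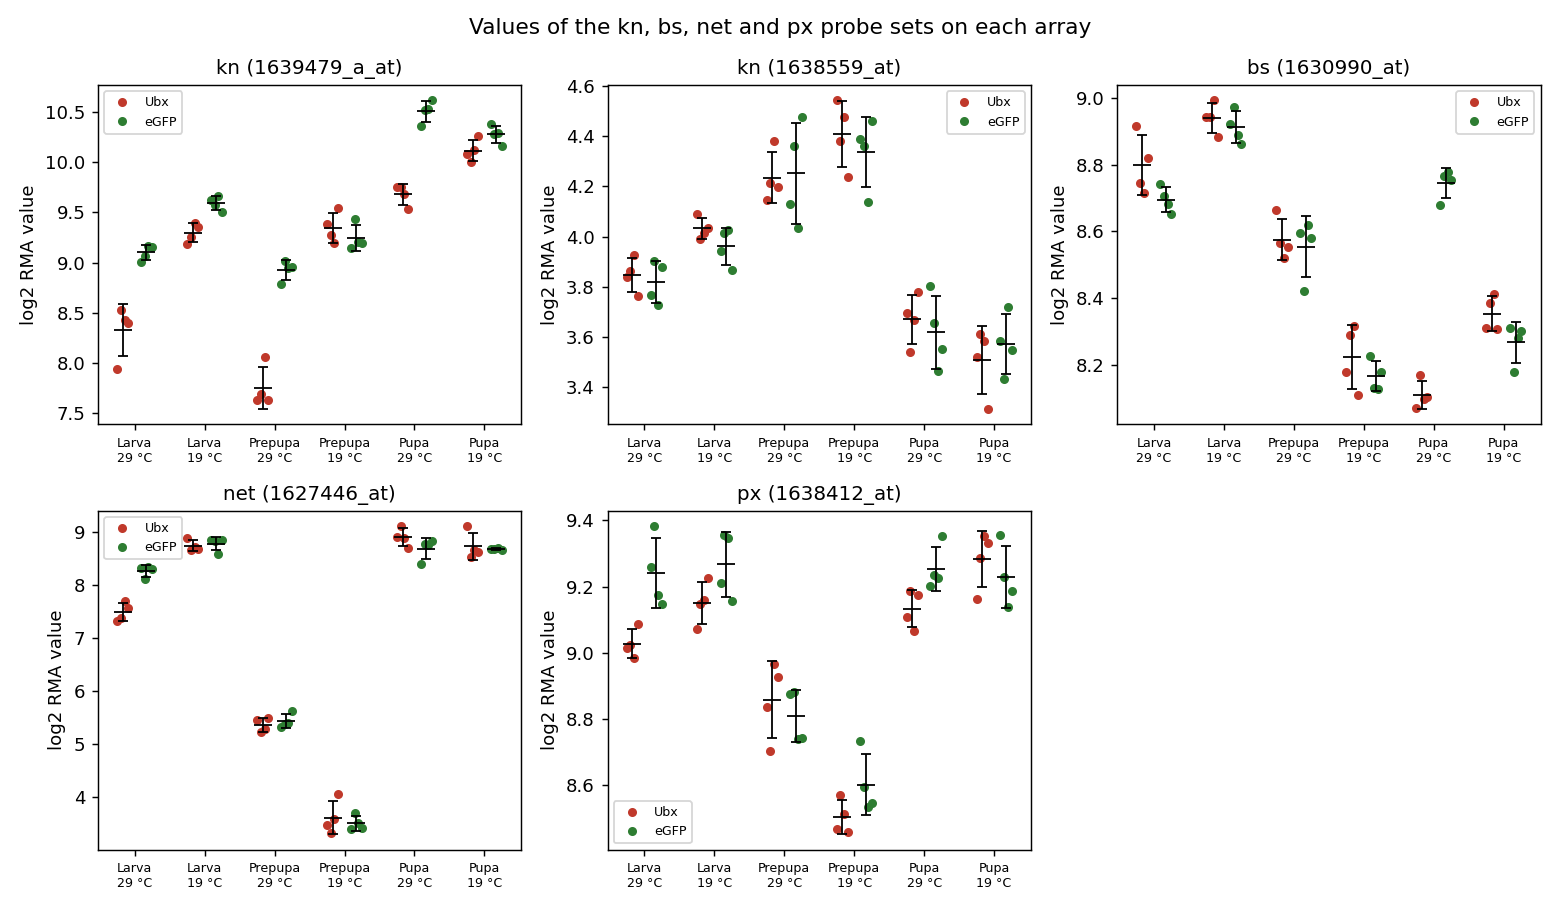
Log2 RMA value of each array (dots) for the 5 probe sets of kn, bs, net and px, by stage and temperature, with Ubx arrays left of eGFP arrays; bars are the mean and SD of 4 arrays. In kn 1639479_a_at the Ubx and eGFP ranges at 29 °C are apart at each stage, in bs only in pupae, and net drops in prepupae of both lines.

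kn was lower in Ubx wings at all 3 stages at 29 °C. In larvae its probe set 1639479_a_at read 7.95, 8.53, 8.43 and 8.40 on the Ubx arrays, against 9.01, 9.07, 9.17 and 9.16 on the eGFP arrays. In prepupae it read 7.63, 7.69, 8.06 and 7.63 on the Ubx arrays, against 8.79, 9.01, 8.95 and 8.95 on the eGFP arrays. In pupae it read 9.76, 9.75, 9.68 and 9.53 on the Ubx arrays, against 10.36, 10.52, 10.53 and 10.62 on the eGFP arrays. The ranges of the lines do not overlap at any of these stages, and larval Ubx array 1 lies below the other 3 of its group. The difference was -0.78 in larvae (SE 0.09, adjusted p = 5.94e-08), -1.17 in prepupae (SE 0.09, adjusted p = 1.94e-13) and -0.82 in pupae (SE 0.09, adjusted p = 5.55e-09). On the linear scale, kn in Ubx wings stood at 58.4%, 44.3% and 56.5% of its eGFP level. Of all probe sets, 0.480%, 0.485% and 0.922% had a larger absolute difference in larvae, prepupae and pupae.

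With the transgenes off, kn read 9.19, 9.25, 9.39 and 9.36 on the larval Ubx arrays, against 9.63, 9.58, 9.66 and 9.50 on the larval eGFP arrays. All 4 Ubx arrays lie below all 4 eGFP arrays. This difference of -0.29 did not pass over all probe sets (95% interval -0.48 to -0.11, adjusted p = 0.142), while a fit of these 8 arrays alone called it (adjusted p = 0.0395). At 19 °C the difference was 0.10 in prepupae (adjusted p = 0.761) and -0.16 in pupae (adjusted p = 0.621), with overlapping ranges. The interaction with temperature was -0.48 in larvae (SE 0.13, adjusted p = 0.114), -1.28 in prepupae (SE 0.13, adjusted p = 1e-09) and -0.66 in pupae (SE 0.13, adjusted p = 0.000826). The larval difference of kn at 29 °C was therefore not shown to exceed the gap between the lines at 19 °C.

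Whether the kn difference at 29 °C itself changed between stages was tested in the same model. Between larva and prepupa the difference changed by -0.40 (95% interval -0.66 to -0.14, adjusted p = 0.0582) against 6.31% of all probe sets called. It passed without larval Ubx array 1 (-0.53, adjusted p = 0.00282), without prepupal Ubx array 3 (adjusted p = 0.00811) or without prepupal eGFP array 1 (adjusted p = 0.0401), and among probe sets of above-median level (adjusted p = 0.0337). The change between prepupa and pupa was 0.35 (95% interval 0.09 to 0.61, adjusted p = 0.0833), against 9.89% of all probe sets called, and passed without prepupal Ubx array 3 (0.45, adjusted p = 0.0135). Between larva and pupa it was -0.05 (95% interval -0.31 to 0.21, adjusted p = 0.933).

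The other kn probe set, 1638559_at, gave no call in any comparison. Its group means ran between 3.51 and 4.41, below the array medians, and between the 24.9th and 45.3rd percentile of the probe sets tested. Odorant, gustatory and visual receptor genes, whose products serve sensory organs, gave a scale for dim signal: the 95th percentile of 112 such genes lay between 4.02 and 4.61 in the 12 groups. In prepupae at 29 °C 1638559_at read 4.15, 4.21, 4.38 and 4.20 on the Ubx arrays, against 4.13, 4.36, 4.04 and 4.48 on the eGFP arrays, so that the ranges overlap. Group means this dim give no check on the fall seen with 1639479_a_at. No detection calls were used here.

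**Figure D2:**
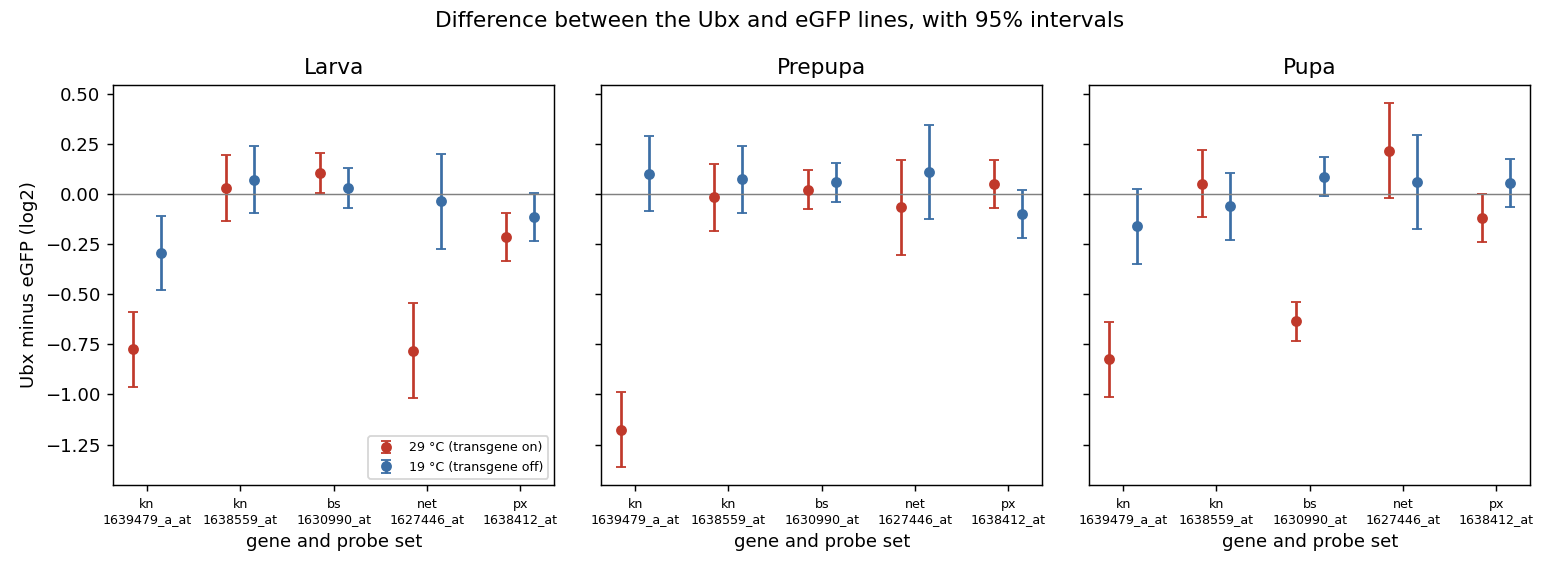
Difference between the Ubx and eGFP lines (log2, Ubx minus eGFP) with its 95% interval for each probe set, at 29 °C (red) and 19 °C (blue), in larvae, prepupae and pupae. kn 1639479_a_at lies at -0.78, -1.17 and -0.82 at 29 °C, net at -0.78 in larvae and bs at -0.64 in pupae.

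bs was called lower in Ubx wings in pupae and was not called at earlier stages. In pupae at 29 °C it read 8.07, 8.17, 8.10 and 8.10 on the Ubx arrays, against 8.68, 8.77, 8.78 and 8.75 on the eGFP arrays. Every Ubx array lies below every eGFP array. The difference was -0.64 (SE 0.05, adjusted p = 1.01e-13), which puts bs at 64.4% of its eGFP level, and 1.71% of all probe sets had a larger absolute difference in pupae. At 19 °C the pupal difference was 0.09 (95% interval -0.01 to 0.18, adjusted p = 0.601), and the interaction was -0.72 (SE 0.07, adjusted p = 2.21e-10).

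In larvae at 29 °C bs read 8.92, 8.74, 8.71 and 8.82 on the Ubx arrays, against 8.74, 8.70, 8.68 and 8.65 on the eGFP arrays. The difference of 0.10 (95% interval 0.01 to 0.20, adjusted p = 0.414) was not called, and its interval holds no fall. In prepupae the difference was 0.02 (95% interval -0.08 to 0.12, adjusted p = 0.867). The change of the bs difference was -0.66 between prepupa and pupa (SE 0.07, adjusted p = 1.44e-09) and -0.74 between larva and pupa (SE 0.07, adjusted p = 1.33e-10), the last against 2.67% of all probe sets called. Between larva and prepupa it was -0.08 (adjusted p = 0.62).

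net was called lower in Ubx wings in larvae and was not called at later stages. In larvae at 29 °C it read 7.32, 7.37, 7.69 and 7.57 on the Ubx arrays, against 8.32, 8.11, 8.35 and 8.30 on the eGFP arrays, with no overlap. The difference was -0.78 (SE 0.12, adjusted p = 7.66e-06), which is 58.2% of the eGFP level. At 19 °C it read 8.90, 8.67, 8.73 and 8.69 on the larval Ubx arrays, against 8.85, 8.84, 8.59 and 8.85 on the larval eGFP arrays, a difference of -0.04 (adjusted p = 1) with overlapping ranges. The larval interaction was -0.74 (SE 0.17, adjusted p = 0.0179). This call was lost when any of 4 arrays was left out, namely Ubx array 1 at 19 °C (adjusted p = 0.0613), eGFP array 3 at 19 °C (adjusted p = 0.0737), or Ubx array 1 or 2 at 29 °C (adjusted p = 0.066 and 0.0605), with values between -0.81 and -0.68 over all arrays left out in turn.

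In prepupae at 29 °C the net difference was -0.07 (95% interval -0.30 to 0.17, adjusted p = 0.821), at a low level of the gene. In pupae it was 0.22 (95% interval -0.02 to 0.45, adjusted p = 0.309), with Ubx arrays at 8.91, 9.12, 8.89 and 8.71 and eGFP arrays at 8.40, 8.78, 8.76 and 8.84. The difference changed by 0.72 between larva and prepupa (SE 0.17, adjusted p = 0.00366) and by 1.00 between larva and pupa (SE 0.17, adjusted p = 6.88e-05). Between prepupa and pupa it changed by 0.28 (adjusted p = 0.329).

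px was called lower in Ubx wings in larvae alone among the 3 stages at 29 °C, by a small difference. In larvae at 29 °C it read 9.02, 9.02, 8.98 and 9.09 on the Ubx arrays, against 9.26, 9.38, 9.18 and 9.15 on the eGFP arrays. The ranges do not overlap, and the difference of -0.21 (SE 0.06) passed narrowly with an adjusted p = 0.0353. The call was lost after median centring of each array (adjusted p = 0.0645), in a fit of these 8 arrays alone (adjusted p = 0.121), and without Ubx array 1, 2 or 3 or eGFP array 1 or 2 (adjusted p from 0.0855 to 0.221). The value at 19 °C was -0.12 (adjusted p = 0.729) and the interaction -0.10 (adjusted p = 1). The larval px difference at 29 °C was therefore not shown to exceed the gap between the lines at 19 °C.

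In pupae at 29 °C px read 9.11, 9.19, 9.07 and 9.17 on the Ubx arrays, against 9.20, 9.23, 9.23 and 9.35 on the eGFP arrays. These ranges do not overlap either, but the difference of -0.12 was not called (adjusted p = 0.253). In prepupae the difference was 0.05 (95% interval -0.07 to 0.17, adjusted p = 0.71). The change between larva and prepupa, 0.26, had an adjusted p = 0.0514. It fell on the called side in 10 of 22 alternatives (adjusted p from 0.0138 to 0.153 over all 22).

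Without the larval eGFP array 3, which stood apart in fat body genes, the larval differences at 29 °C were -0.75 for kn (adjusted p = 1.09e-06), -0.75 for net (adjusted p = 8.94e-05) and -0.24 for px (adjusted p = 0.0359), and the net interaction was -0.72 (adjusted p = 0.0499). In pupae the mean level of the 3 measured fat body genes lay between 9.22 and 10.14 on Ubx arrays and between 10.58 and 11.39 on eGFP arrays at 29 °C. At 19 °C, where bs differed by 0.09 and kn by -0.16, it lay between 7.54 and 8.92 on Ubx arrays and between 9.67 and 10.40 on eGFP arrays. Of the 3 genes, Fbp2 alone was called lower in pupae at 29 °C, and none was called higher. The median difference of the 3 there was 0.06, so the gap in their mean was not shared by all 3. The part of fat body tissue in the pupal kn and bs differences was not tested.

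Across the 12 groups net spanned a far wider range than the other genes, with a low level in prepupae of both lines. In eGFP animals at 29 °C net averaged 8.27 ± 0.11 in larvae, 5.43 ± 0.13 in prepupae and 8.69 ± 0.20 in pupae (SD, n = 4 each). In eGFP animals at 19 °C it averaged 8.79 ± 0.13 in larvae, 3.50 ± 0.14 in prepupae and 8.68 ± 0.02 in pupae (SD, n = 4 each). The Ubx line had the same order, with 7.49, 5.36 and 8.91 at 29 °C and 8.75, 3.61 and 8.74 at 19 °C. At 19 °C the prepupal eGFP mean stood at the 11.2th percentile of all probe sets and below the median of the 112 receptor genes (3.77), so that level is not shown to be above background. At 29 °C the prepupal mean stood at the 58.0th percentile and above the 95th percentile of the receptor genes (4.61).

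The dip of net held on each scale tried, and at 19 °C its size is a least value, since the prepupal level there is not shown to be above background. In eGFP animals the prepupal level lay below the larval level by -2.84 at 29 °C and -5.28 at 19 °C as deposited, by -2.50 and -4.70 after quantile normalisation of all 48 arrays together, and by -3.13 and -5.25 with arrays centred on their medians. The pupal level lay above the prepupal level by 3.26 at 29 °C and 5.18 at 19 °C, and by at least that in the other scalings. Stage, hours after puparium formation and set of arrays cannot be told apart here.

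**Figure D3:**
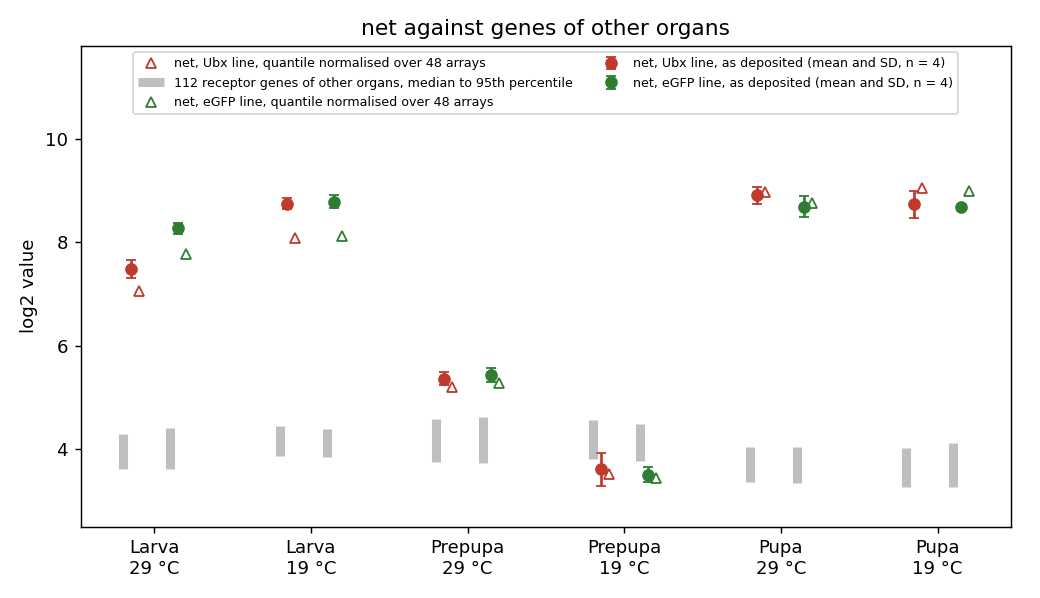
Level of net (log2) by stage and temperature in the Ubx line (red, left) and eGFP line (green, right). Filled circles are deposited means with SD (n = 4), open triangles the means after quantile normalisation of 48 arrays, and grey bars the median to 95th percentile of 112 sensory receptor genes; net lies below the grey bars in prepupae at 19 °C and above them elsewhere.

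By group means kn was highest in pupae. Its 4 highest group means were the pupal ones, 9.68 in Ubx and 10.50 in eGFP pupae at 29 °C, and 10.11 in Ubx and 10.28 in eGFP pupae at 19 °C. The ranges of its neighbours in this order overlap at the top, except that Ubx pupae at 29 °C lie apart from Ubx pupae at 19 °C. Ubx pupae at 29 °C (9.53 to 9.76) overlap the next group down, eGFP larvae at 19 °C (9.50 to 9.66). The lowest 2 means were those of Ubx larvae and Ubx prepupae at 29 °C, 8.33 and 7.75, whose ranges overlap and which lie apart from the next mean up, that of eGFP prepupae at 29 °C (8.93). The pupal level of eGFP animals lay above the prepupal one by 1.58 at 29 °C and 1.03 at 19 °C, and by 1.48 and 1.08 after quantile normalisation over all arrays.

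Between larva and prepupa the order of levels depended on the scale for kn, bs and px. In eGFP animals at 19 °C the prepupal minus larval level was -0.35 for kn, -0.75 for bs and -0.67 for px as deposited, but 0.54, 0.34 and 0.34 after quantile normalisation over all arrays. At 29 °C it was -0.18, -0.14 and -0.43 as deposited and 0.51, 0.61 and 0.25 after that normalisation. No direction is therefore given for these changes. Ubx pupae at 29 °C held the lowest bs mean of the 12 groups as deposited (8.11) and after quantile normalisation (8.18), but with arrays centred on their medians they stood at 8.24, above Ubx (8.13) and eGFP (8.08) prepupae at 19 °C. As deposited, bs means otherwise spanned only 8.17 to 8.94. The px means spanned 8.50 to 9.28, with the prepupal groups as the lowest 4 as deposited but not after quantile normalisation.

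The temperature step, 29 °C minus 19 °C, is given for both lines as deposited and after quantile normalisation over all arrays. For kn in Ubx animals it was -0.97, -1.60 and -0.43 in larvae, prepupae and pupae as deposited, and -0.83, -1.64 and -0.67 after normalisation. For kn in eGFP animals it was -0.49, -0.32 and 0.23 as deposited, and -0.33, -0.35 and 0.04 after normalisation. For bs in pupae it was -0.24 in the Ubx line and 0.48 in the eGFP line as deposited, and -0.50 in the Ubx line and 0.22 in the eGFP line after normalisation. For net in larvae it was -1.26 in the Ubx line and -0.51 in the eGFP line as deposited, and -1.03 in the Ubx line and -0.35 in the eGFP line after normalisation. Each step thus moved with the scale. The interactions given above test the difference of the steps between lines, which was called for kn in prepupae and pupae but not in larvae, for bs in pupae and for net in larvae.

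Among 25 other genes of vein fate and its signals, 20 were measured. At 29 °C, 1 was called lower in larvae, 7 lower and 3 higher in prepupae, and 7 lower in pupae, with median differences of -0.01, 0.00 and -0.12 against -0.00, -0.01 and 0.02 over all probe sets tested. For this list and those that follow, the shares of all probe sets called at 29 °C were 2.77% in larvae, 14.2% in prepupae and 8.89% in pupae. In larvae the gene that fell was E(spl)mbeta-HLH, a Notch target that represses vein fate (-0.41, adjusted p = 0.00134). In prepupae caup, an Iroquois homeobox gene of vein fate, fell by 0.61 (adjusted p = 9.03e-10) and the POU gene vvl (ventral veins lacking) by 0.92 (adjusted p = 9.01e-08). Also in prepupae, cv-2, whose product binds BMPs at crossveins, fell by 0.57 (adjusted p = 6.21e-07) and knrl, a nuclear receptor gene of the second vein, by 0.99 (adjusted p = 1.33e-06). The 3 that rose in prepupae, named after their values were seen, were tkv (0.24), which encodes a Dpp receptor, gbb (0.19), which encodes a BMP ligand, and H (0.33), which encodes a Notch pathway repressor. The other probe sets of tkv and H were not called in prepupae, and the H call was lost without prepupal Ubx array 1 (adjusted p = 0.0598).

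In pupae caup fell by 0.64 (adjusted p = 3.93e-10), its Iroquois neighbour ara by 0.64 (adjusted p = 5.72e-10), Mad, the transducer of Dpp signals, by 0.56 (adjusted p = 1.23e-08) and vvl by 0.72 (adjusted p = 2.07e-05). Both vvl probe sets were called in prepupae and in pupae. In larvae at 19 °C the mean level of the vein list lay between 9.95 and 10.01 on Ubx arrays. On eGFP arrays it lay between 10.03 and 10.08. In prepupae and pupae at 19 °C the ranges of the lines overlapped.

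Of 10 genes that act in Hedgehog and spalt input to kn, 9 were measured, and 3, 2 and 3 were called lower at 29 °C in larvae, prepupae and pupae, with none higher and medians of -0.01, -0.09 and -0.13. The prepupal count of 2 in 9 lies near the 14.2% called among all probe sets, while larval and pupal shares are to be read against 2.77% and 8.89%. In larvae these were salr (-0.41, adjusted p = 1.94e-05), en (-0.28, adjusted p = 0.00161) and salm (-0.24, adjusted p = 0.0383). The spalt genes salm and salr encode zinc finger proteins of the central wing, and en marks the posterior compartment, the source of Hedgehog. The salm call was lost in 7 alternatives in larvae (adjusted p up to 0.199). In prepupae salm (-0.36, adjusted p = 0.000127) and salr (-0.27, adjusted p = 0.00218) fell. In pupae en (-0.34, adjusted p = 3.55e-05), hh (-0.31, adjusted p = 0.000268), which encodes the Hedgehog ligand, and salr (-0.26, adjusted p = 0.00483) fell, the hh call being lost in a fit of the 8 arrays alone (adjusted p = 0.0683) and the salr call in that fit and without eGFP array 2. The Hedgehog receptor gene ptc, the transducer gene smo and the transcription factor gene ci differed by at most 0.19 in size at any stage and were not called.

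Of 16 genes for adhesion and matrix, through which intervein cells join the dorsal and ventral wing surfaces, 14 were measured. At 29 °C, 2 were called lower in larvae, 5 lower and 2 higher in prepupae, and 4 lower and 1 higher in pupae, with medians of -0.03, -0.09 and 0.02, where 2.77%, 14.2% and 8.89% of all probe sets were called in larvae, prepupae and pupae. The laminin gene wb (wing blister) fell by 0.32, 1.03 and 0.57 in larvae, prepupae and pupae (adjusted p = 0.0038, 5.97e-15 and 8.28e-08), and its 2 dim probe sets were called only in prepupae, 1 of them (-0.26, adjusted p = 0.00448). The integrin gene if fell by 0.25 in larvae (adjusted p = 0.00308), a call lost in a fit of the 8 arrays alone (adjusted p = 0.0724), and by 0.31 in pupae (adjusted p = 6.55e-05). In prepupae dy, which encodes a membrane protein of the apical surface, fell by 0.64 (adjusted p = 3.33e-05), pot, whose product links wing cells to cuticle, by 0.26 (adjusted p = 4.37e-05), and the laminin gene LanB1 rose by 0.26 (adjusted p = 0.000386). The pot difference was -0.35 at 19 °C, where it was also called (adjusted p = 3.9e-07). In pupae dy fell by 0.55 (adjusted p = 0.000551), while the laminin gene LanA rose by 0.91 (adjusted p = 3.33e-13). LanA also rose in prepupae (0.27, adjusted p = 0.00716), named here after its value was seen. In larvae at 19 °C the mean level of this list lay between 10.26 and 10.33 on Ubx arrays. On eGFP arrays it lay between 10.35 and 10.39. In prepupae and pupae at 19 °C the ranges of the lines overlapped.

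Of 4 actin genes and partners of the serum response factor, Mrtf, its coactivator, and chic, the profilin gene, were measured, and neither was called at 29 °C at any stage. In pupae, where bs fell, Mrtf differed by -0.12 (adjusted p = 0.541) and chic by 0.04 (adjusted p = 0.652). Of 7 helix-loop-helix genes, 6 were measured, and none was called in larvae, where net fell (median -0.01). In prepupae da, the common dimer partner of the family, rose by 0.19 (adjusted p = 0.000767), a call lost in a fit of the 8 arrays alone (adjusted p = 0.0801), and tx (taxi, also called delilah) fell by 0.58 (adjusted p = 0.00203). In pupae the proneural genes sc (0.32, adjusted p = 0.00973) and ac (0.35, adjusted p = 0.0412) rose, and ase (-0.36, adjusted p = 0.0129) and tx (-0.44, adjusted p = 0.0356) fell. The ac, ase and tx calls in pupae were lost in 8, 4 and 5 alternatives.

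**Figure D4:**
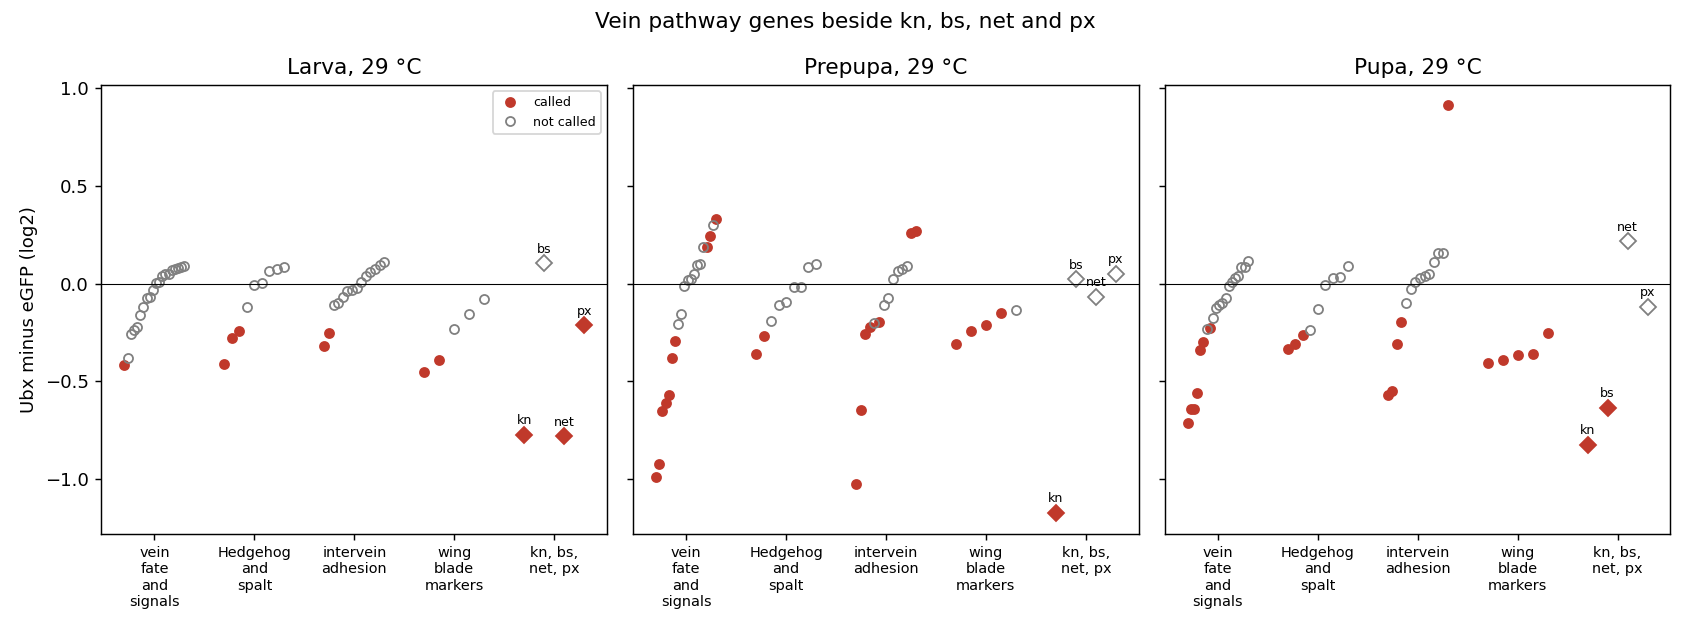
Difference between the Ubx and eGFP lines at 29 °C (log2, Ubx minus eGFP) for each measured gene of 4 lists and for kn, bs, net and px (diamonds; kn by 1639479_a_at). Filled red symbols were called (adjusted p under 0.05). Each gene is drawn by its brightest probe set; drawn so, the wing blade markers lie between -0.45 and -0.08, while dimmer probe sets of vg and nub reached -0.90 and -1.11.

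The samples carried the markers of wing tissue. Their mean level was lower in the Ubx line at 29 °C, while at 19 °C the ranges of the lines overlapped at each stage. Of 6 wing blade markers 5 were measured (nub, vg, ap, rn and pdm2). Their mean level lay between 9.23 and 9.30 on Ubx arrays and 9.47 and 9.57 on eGFP arrays in larvae at 29 °C, between 8.69 and 8.87 on Ubx arrays and 8.93 and 9.04 on eGFP arrays in prepupae, and between 9.59 and 9.74 on Ubx arrays and 9.88 and 10.14 on eGFP arrays in pupae. In larvae vg, the wing selector gene, fell by 0.45 (adjusted p = 3.03e-08) and the POU gene nub by 0.39 (adjusted p = 0.00251), each by its brightest probe set. The second vg probe set fell further, by 0.86 in larvae (adjusted p = 2.63e-06) and by 0.90 in pupae (adjusted p = 4.57e-07), which is more than kn at these stages, and was not called in prepupae (-0.25, adjusted p = 0.211). Of the dimmer nub probe sets, 1 fell by 1.11 in prepupae (adjusted p = 7.6e-05) and by 0.91 in pupae (adjusted p = 0.00156), and the other by 0.69 in pupae (adjusted p = 0.0309); neither was called in larvae. The dimmer ap probe set was called in pupae alone (-0.35, adjusted p = 0.0128) and the dim rn probe set at no stage. In prepupae 4 of the 5 were called lower, but the vg, rn, ap and nub calls there were lost in 9, 8, 3 and 1 alternatives. In pupae all 5 measured were called lower by their brightest probe sets with a median of -0.37, the ap call (-0.25) being lost in a fit of the 8 arrays alone (adjusted p = 0.11). They were led by vg (-0.37, adjusted p = 1.09e-06), pdm2 (-0.41, adjusted p = 2.94e-05), rn (-0.39, adjusted p = 0.000652) and nub (-0.36, adjusted p = 0.00284). The part of this shift in the kn, bs and net results was not tested.

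Markers of other cell types were read beside these results. Tracheal markers, of interest since bs also acts in tracheal cells, had 6 of 7 measured, and in pupae 3 fell and 1 rose: serp (-1.24, adjusted p = 1.13e-14), verm (-0.95, adjusted p = 2.17e-12) and Gasp (-0.88, adjusted p = 8.86e-07), which encode chitin-modifying or chitin-binding proteins that epidermal cuticle also uses, and rib (0.42, adjusted p = 0.0026). The FGF receptor gene btl, which defines tracheal cells, was at 3.77 in Ubx pupae and 3.90 in eGFP pupae, below the array medians, and was not called (-0.13, adjusted p = 0.475). In larvae knk alone of this list was called higher (0.16, adjusted p = 0.00773), and the call was lost in a fit of the 8 arrays alone (adjusted p = 0.179) and without Ubx array 1 (adjusted p = 0.0742). Summed as a mean over the 6 genes, the tracheal level in pupae at 29 °C lay between 7.15 and 7.29 on Ubx arrays and between 7.61 and 7.72 on eGFP arrays. The part of tracheal cells in the bs result was not tested.

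Haemocyte markers, all 7 measured, included NimC1, a phagocytosis receptor gene, which was higher in Ubx wings in prepupae by 0.78 (adjusted p = 0.000217) and in pupae by 0.91 (adjusted p = 3.02e-05), and by 0.58 and 0.89 at 19 °C. The GATA factor gene srp rose in prepupae (0.53, adjusted p = 0.0477), a call lost in 8 alternatives. In pupae at 19 °C the mean of this list lay between 6.17 and 6.34 on Ubx arrays. On eGFP arrays at 19 °C it lay between 5.95 and 6.12. At 29 °C the pupal mean lay between 6.29 and 6.49 on Ubx arrays and between 5.98 and 6.24 on eGFP arrays. Of 4 measured myoblast and muscle markers, zfh1 rose in prepupae (0.48, adjusted p = 0.00559), and no other call was made. None of 5 neuron and glia markers was called at any stage. Of 3 measured fat body genes, Fbp2 fell in larvae (-2.09, adjusted p = 0.00719), a call lost in a fit of the 8 arrays alone (adjusted p = 0.395), and in pupae (-4.52, adjusted p = 2.82e-09), where it also differed by -3.78 at 19 °C. The larval comparison includes eGFP array 3, whose mean over the 3 fat body genes was 10.72. The larval Fbp2 value without that array is not given here.

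The genes patterned most like each member were named by the Pearson correlation over 48 arrays of deviations from the mean of each set of 8 arrays. For kn these were the T-box genes Doc1 (0.91), Doc2 (0.89) and Doc3 (0.88). For bs they were serp (0.87), Qsox2 (0.86), which encodes a sulfhydryl oxidase, and the lipophorin receptor gene LpR1 (0.83). For net they were ltl (0.79), which encodes the secreted protein larval translucida, CG42238 (0.76) and CG7201 (0.65). For px they were Cyp4d2 (0.70), the furry gene fry, at 0.63, and the Mediator subunit gene MED1, at 0.58. All points of a set share normalisation, and these values describe likeness only.

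Among the 4 genes themselves such correlations were weak. They were 0.34 for kn with net, 0.31 for kn with px, 0.26 for kn with bs, 0.21 for bs with px, 0.12 for net with px and -0.32 for bs with net. Over the 12 group means, which also hold stage and temperature, net was patterned most like the nuclear receptor gene Hr39, the translational repressor gene pum and bip1 (each 0.99), also after quantile normalisation over all arrays. kn was patterned most like pdm2 (0.91), CRMP (0.90) and Cpr12A (0.89). px followed dpn (0.98), net (0.97) and Hr39 (0.97) on the deposited scale, but these values were 0.53, 0.28 and 0.32 after quantile normalisation. The closest to bs were Ddr (0.90), PlexB (0.90) and Spps (0.90), at -0.40, -0.10 and 0.53 after that normalisation.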

How the data were processed

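Wing RNA of 48 samples was hybridised, 1 array each, after labelling 2 µg. Per the submitters' processing notes the authors used RMA (version not given in the sources used here), and the deposited values are taken as log2 from their range of 2.37 to 14.6. The sorted values of 2 arrays lay up to 0.0612 apart on average where stage and temperature were shared, and 0.103 or more apart otherwise. This points to 6 separate normalisations of 8 arrays; the lines compared share one.

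From these values, 183 array controls were left out. Of the 18769 tested probe sets, 13647 had 1 symbol in the annotation table, 402 several and 4720 none. Groups came from the labels. limma 3.58.1 (lmFit, eBayes; R 4.3.3) fitted 12 group means, with 36 residual degrees of freedom and 5.16 from the prior. Tests were two-sided, with Benjamini-Hochberg adjustment per contrast. The fit was tested on simulated data. Tables and figures were made with Python 3.11.15. For a listed gene with several probe sets the brightest on average was used. Up to 4 called members per list and stage with the smallest adjusted p, and the 3 genes most like each member by each measure, were named. Members, lists and tests were chosen with earlier results of these data known. Array number limits precision. Alternatives were quantile normalisation over all arrays, median centring, eBayes with trend and robust settings, probe sets above the median only, a replicate block, only the arrays compared, and each array left out. A planned test of unequal change between the kn probe sets is not reported, since 1638559_at lay at the level of dim genes.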

Additional observations from a re-analysis of the deposited data

Results flagged for a closer look

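In 60 groups of 4 arrays (5 probe sets in 12 groups), 2 held an array far from the other 3; chance gives about 1 such group in 20. These were kn 1639479_a_at on Ubx array 3 of prepupae at 29 °C, at 8.06, and net on eGFP array 3 of larvae at 19 °C, at 8.59. Without the first, the prepupal kn difference was -1.28 (adjusted p = 2.78e-14) and its interaction -1.38. Without the second, the larval net interaction was -0.68 (adjusted p = 0.0737) and no longer called.

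The line difference changed with temperature for kn in prepupae (-1.28) and pupae (-0.66), for bs in pupae (-0.72) and for net in larvae (-0.74). At 29 °C it changed with stage for bs between prepupa and pupa (-0.66) and between larva and pupa (-0.74). For net it changed between larva and prepupa (0.72) and between larva and pupa (1.00). Each of these 8 came from the contrast of the difference itself in limma.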

How the results depend on the processing

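Of 14 called results for kn, bs, net and px, 12 kept their direction and call under all alternatives run, and none changed direction. The larval px difference at 29 °C was -0.21 with arrays centred, and -0.21 in a fit of the arrays compared (neither called), and lay between -0.25 and -0.17 with each array left out. The larval net interaction lay between -0.81 and -0.68 with each array left out. Same-numbered arrays of the lines correlated between -0.15 and 0.36 in their deviations and 6 of 24 Ubx arrays matched their own number best. The labels state no pairing by number, and these values cannot exclude one in single sets. With the number as a replicate block px gave -0.21 and was not called (adjusted p = 0.14), and no other called member result lost its call.

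With only the arrays compared, fewer probe sets were called: 358 in place of 689 at 19 °C in prepupae, 930 in place of 1669 at 29 °C and 142 in place of 374 at 19 °C in pupae, and 948 in place of 1443 and 398 in place of 630 in the prepupal and pupal interaction; fewer arrays enter that fit. With each array left out, these counts lay between 513 and 759, 1294 and 1812, 284 and 370, 1125 and 1515, and 503 and 760, and the larval interaction count between 61 and 125 (83 with all; 125 without eGFP array 2 at 19 °C). The cause of the last was not tested. Counts at 29 °C fell as well with only the arrays compared, from 2672 to 1890 in prepupae and from 520 to 391 in larvae. The larval interaction count fell from 83 to 68 in that fit.

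Differences near 0 that were never called crossed 0. Those of kn 1638559_at lay, with each array left out, between -0.000855 and 0.0573, -0.0881 and 0.0583, and -0.000375 and 0.113 at 29 °C in larvae, prepupae and pupae, between -0.11 and 0.00121 at 19 °C in pupae, and, for changes between stages, between -0.117 and 0.0292 (larva to prepupa), -0.00704 and 0.139 (prepupa to pupa) and -0.0294 and 0.084 (larva to pupa). Quantile normalisation and centring gave 0.00211 and 0.00578 in prepupae, and -0.0193 and -0.0285 for larva to pupa. The change of kn 1639479_a_at between larva and pupa lay between -0.176 and 0.0191. bs in prepupae at 29 °C lay between -0.0235 and 0.0432, and was -0.0196 after quantile normalisation. net at 19 °C lay between -0.0400 and 0.204 in prepupae and -0.0677 and 0.127 in pupae. Likeness of bs to Ddr and PlexB turned to -0.40 and -0.10 after quantile normalisation. The filter on level removed kn 1638559_at, so it has no value there. Dim signal limits kn 1638559_at and net in prepupae at 19 °C, where changes may be understated.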
